A study of Mus musculus with 16 samples.

Results

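The 10 genes described here, Cdkn1a, Bax, Bbc3, Eda2r, Phlda3, Zmat3, Trp53inp1, Mdm2, Sulf2 and Psrc1, are 10 of the 31053 features counted in mouse kidney cells. They are known or reported to respond to the transcription factor p53. They were chosen by name with the measured differences between diabetic and control libraries in proximal tubule (PT) cells in view, so those differences are given below as a description, without a test. What was added here is their level in every other cell class, at both ages and in both sexes.

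The study sequenced single cells from 16 mice, 1 library per mouse, with 2 libraries in each of 8 groups. DN mice were BTBR ob/ob, which lack functional leptin and become obese, insulin resistant and diabetic, and control mice were BTBR +/+. Both genotypes were sampled as females and males at 6 weeks and at 12 weeks of age. Kidneys were enriched for glomeruli with a Percoll gradient that discards part of the PT, and the labels call the cells glomeruli cells although tubular cells made up most of them. By the study's methods, mice of both genotypes also carried a tdTomato/EGFP reporter and a Cre active in podocytes. The labels name no altered p53 allele in any group.

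p53 is held low in unstressed cells by the ubiquitin ligase Mdm2, which is itself a p53 target and closes a feedback loop. DNA damage and other stresses stabilise p53, which then raises genes that stop the cell cycle, foremost the cyclin-dependent kinase inhibitor Cdkn1a (p21), and genes that favour cell death, among them Bax and Bbc3 (PUMA). In the kidney this response is best known from injured PT cells.

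Cells were clustered by their expression and the clusters were named from markers, which gave 15 classes. Each name below stands for cells of clusters with these markers (PT-like, and so on). The classes comprised 68899 of 86687 cells kept, from 526 arterial endothelial (aEC) to 17712 PT cells. The other classes were glomerular endothelial (gEC), descending and ascending loop of Henle (dLOH, aLOH), distal convoluted tubule (DCT), connecting tubule (CNT), principal (PC), type A and type B intercalated (IC-A, IC-B), podocyte, mesangial, smooth muscle and renin (SMC), immune and mitotic cells. The 17788 unnamed cells stood in 9 of 37 clusters, and the PT class held 1 cluster, and the CNT class another, made almost wholly of 1 library each (99.4% and 100% of its cells). UMIs (unique molecular identifiers, one per captured RNA molecule) were summed per library and class, and levels are given as CPM, the UMIs of a gene scaled to the summed UMIs of its library and class. Mitochondrial UMIs were included in that sum. Their median share per cell was 33.9% in the aLOH cluster and 4.37% in the gEC cluster. The part of this in the order of classes was not tested. Control male 6 weeks replicate 2 had a median of 698 UMIs per barcode, against 2061.5 to 10787 in the other libraries. In that library 36.5% of the kept cells were unnamed, the highest share. In all, libraries held 10510855 to 125551519 UMIs. Replicate 1 of each female group, 4 libraries in all, had no more than 21728793 and drew its barcodes from another list than the remaining 12, which had at least 83410397. Between libraries of different lists 0 to 3 barcodes were shared, against 7 to 55 within a list. This split, called the chemistry here, was a term of every fit of the main test. It was not a term of the blocked fits or of the fits named below as without it.

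The members lie on 8 chromosomes of the GRCm38 build. Cdkn1a (ENSMUSG00000023067) is at chr17:29090976-29100727, Bax (ENSMUSG00000003873) at chr7:45461697-45466898 and Bbc3 (ENSMUSG00000002083) at chr7:16308393-16318205. Eda2r (ENSMUSG00000034457) is at chrX:97333840-97377216 and Phlda3 (ENSMUSG00000041801) at chr1:135766119-135769136. Zmat3 (ENSMUSG00000027663) is at chr3:32334792-32366014, Psrc1 (ENSMUSG00000068744) at chr3:108383839-108388231 and Trp53inp1 (ENSMUSG00000028211) at chr4:11156431-11174379. Mdm2 (ENSMUSG00000020184) is at chr10:117688875-117710758 and Sulf2 (ENSMUSG00000006800) at chr2:166073089-166155663. Bax shares 915 bases with Gm45808 on the same strand and Sulf2 shares 154 bases with Ncoa3 on the other, so their counts are uncertain to that extent.

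RefSeq promoter windows, 250 bases before to 50 bases after a transcript start, were found for 8 of the 10 members (not for Zmat3 and Trp53inp1). They were searched on both strands for the p53 response element, which is made of a pair of 10-base units, and the unit reads the same way on both strands. A unit without mismatch was in the windows of 3 members, Cdkn1a, Bax and Mdm2, and in 8.36% of all 32851 windows. A pair of units at most 1 base apart with no more than 2 mismatches in all was in the windows of Cdkn1a and Bax and in 0.682% of all windows. The stretches of the 3 members with a unit without mismatch are shown. Mdm2 had a single unit without mismatch, and the search found no pair with no more than 2 mismatches in its window. Another Cdkn1a window held no such unit and no such pair. The search did not score every pair of neighbouring 10-base stretches, so the share of windows with a pair is that of its own rule. A Bbc3 window held a pair with 3 mismatches, which is not shown. Capitals mark the units, those with a mismatch included, and each sequence runs 5′ to 3′ on the gene's strand, and the positions are in GRCm38.p6: Cdkn1a at chr17:29090886-29090967 (plus strand), Bax at chr7:45467059-45467119 (minus strand) and Mdm2 at chr10:117710915-117710964 (minus strand).
Cdkn1a: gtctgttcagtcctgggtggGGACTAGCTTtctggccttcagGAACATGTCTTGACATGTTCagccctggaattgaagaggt
Bax: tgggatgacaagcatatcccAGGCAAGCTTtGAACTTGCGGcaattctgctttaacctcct
Mdm2: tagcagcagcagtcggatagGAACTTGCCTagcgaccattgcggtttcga
The pair in Cdkn1a had 1 mismatch and no base between its units, with a separate unit upstream of it. The pair in Bax had 2 mismatches and a gap of 1 base. A match is a description of these letters and not evidence that p53 was bound.

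The members differed in where they were found. Most were highest in endothelial cells. Cdkn1a was highest in gEC (495.5 ± 321.6 CPM, mean ± SD, n = 16) and aEC (323.5 ± 371.8, n = 14), followed by immune (148.4 ± 80.3, n = 16) and mitotic cells (124.3 ± 69.3, n = 15). It was at 31.5 ± 26.6 CPM in PT cells, which ranked 9 of 15, and lowest in PC (3.93 ± 3.73, n = 16). Its libraries spread widely in every class, and the mean ± SD ranges of all 14 pairs of neighbouring classes overlapped.

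Phlda3, a pleckstrin homology domain protein that restrains Akt, was also an endothelial gene. Its level was 156.1 ± 35.9 CPM in aEC (n = 14) and 144.2 ± 51.0 in gEC (n = 16), then 63.6 ± 16.8 in SMC and 51.0 ± 17.3 in mesangial cells. PT cells held 4.54 ± 3.32 CPM and CNT cells the least, 0.869 ± 1.02. Of 14 neighbouring pairs of classes, 13 overlapped within 1 SD. The exception lay between gEC and SMC.

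Among the death genes, Bax, which permeabilises the outer mitochondrial membrane, was measured in all libraries of all classes. It ranged from 336.9 ± 83.0 CPM in gEC to 58.7 ± 10.8 in DCT. Bbc3, a BH3-only protein that acts upstream of Bax, was highest in aEC (40.4 ± 10.7 CPM), immune cells (33.9 ± 16.3) and gEC (22.8 ± 9.26). In the other 12 classes it was at 1.79 to 6.73 CPM. Eda2r, a receptor of the TNF receptor family, was near the limit of detection. Its highest mean was 4.01 ± 4.18 CPM in gEC from 93 UMIs in all, next came PT cells with 0.869 ± 1.02 CPM from 236 UMIs, and every other class had at most 17 UMIs.

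The remaining members were more even or had a place of their own. Mdm2 stayed between 33.0 CPM in aLOH and 63.7 CPM in mesangial cells. Zmat3, an RNA-binding zinc finger protein, stayed between 10.8 CPM in podocytes and 27.3 CPM in gEC. Trp53inp1, a nuclear protein of the p53 and autophagy responses, was highest in podocytes (74.2 ± 30.6 CPM, n = 15) and SMC (55.4 ± 21.5, n = 16). Sulf2, an extracellular heparan sulphate 6-O-endosulphatase, was highest in aEC (59.4 ± 31.6 CPM) and immune cells (36.3 ± 14.3), at 22.3 to 28.3 CPM in aLOH, DCT, gEC, podocytes and CNT, and at 0.374 CPM in dLOH. Psrc1, a spindle protein, was at 21.5 ± 18.1 CPM in mitotic cells and at no more than 1.24 CPM elsewhere, so its pair of mitotic cells and the next class did not overlap within 1 SD.

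The class profiles (mean log2(CPM + 1) over 15 classes) placed the members beside different genes. Of 14048 genes with at least 5 CPM in some class, Notch1 was among the 2 most like Cdkn1a (Pearson r = 0.895). Phlda3 was most like Dock6 (0.959) and Mn1 (0.956), Bax most like Kctd20 (0.964) and Stx2 (0.959), and Bbc3 most like Ifi44 (0.963) and Isg20 (0.957). Psrc1 was most like Nek2 and Kifc1 (0.98 each), which are mitotic genes. Eda2r was most like Ica1l (0.926) and Kcnh1 (0.924), Zmat3 most like B3gnt2 (0.849) and AI606181 (0.803), and Trp53inp1 most like Tspyl1 (0.886) and Nab1 (0.885). Mdm2 was most like Fam212a (0.953) and Kank4 (0.948), and Sulf2 most like Atp2b4 (0.704) and Ly6c1 (0.673). The 15 points of each correlation share their libraries, and the values are descriptions.

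**Figure D1:**
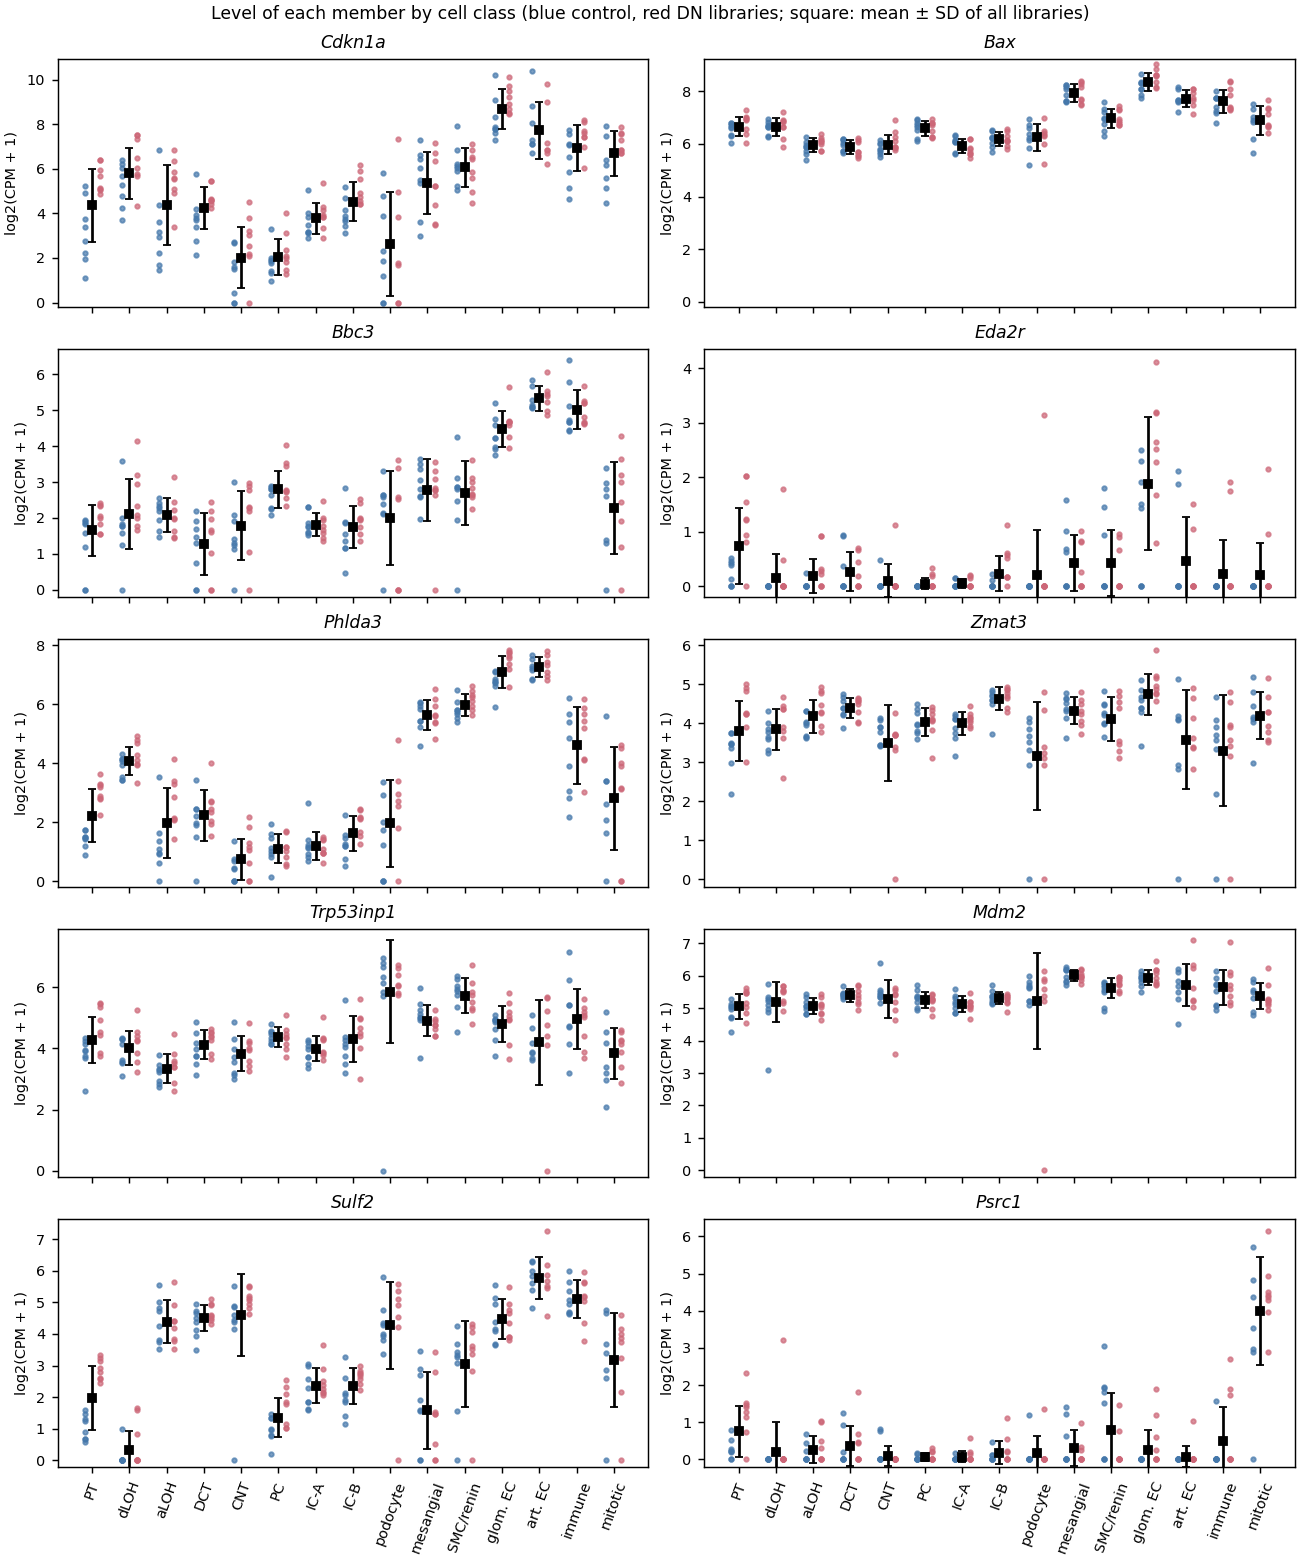
Level of each member, as log2(CPM + 1), in the 15 cell classes. Each dot is a library (blue control, red DN) and squares with bars are the mean and SD over all libraries. Cdkn1a, Phlda3, Bax and Bbc3 are highest in endothelial cells, Psrc1 in mitotic cells and Trp53inp1 in podocytes.

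In PT cells, where the members were chosen, all 10 had a higher DN mean than control mean at 12 weeks. Neither the share of all genes with a higher DN mean nor the share without overlap between genotypes was counted in PT cells. How many members were higher or did not overlap there is therefore a description alone. Cdkn1a was at 2.87, 1.18, 9.54 and 3.70 CPM in the 4 control libraries at 12 weeks and at 27.9, 49.3, 32.7 and 83.6 CPM in the DN libraries. Every DN library stood above every control library, and the ratio of the means was 11.2. At 6 weeks the groups overlapped, with 36.0, 28.9, 12.4 and 5.81 CPM in controls and 32.0, 60.7, 34.4 and 82.9 CPM in DN.

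Phlda3 in PT cells did not overlap between genotypes at either age. Its levels at 12 weeks were 1.80, 0.857, 2.29 and 1.30 CPM in controls and 8.03, 8.51, 6.01 and 8.79 CPM in DN, and the ratio of means was 5.02 at 12 weeks and 3.63 at 6 weeks. Sulf2 in PT cells was likewise separate at both ages, with 0.500 to 1.80 CPM in controls and 5.02 to 9.17 CPM in DN at 12 weeks. The ratio of Sulf2 means was 6.17 at 12 weeks and 5.22 at 6 weeks. Eda2r, Zmat3 and Bbc3 in PT cells were separate at 12 weeks alone. Eda2r rested on 9 UMIs in the controls and 145 in DN at that age.

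Trp53inp1, Psrc1, Mdm2 and Bax in PT cells overlapped at both ages. Their ratios of means at 12 weeks were 2.48 for Trp53inp1, 6.06 for Psrc1, 1.43 for Mdm2 and 1.34 for Bax. DN was above control in all 4 same-numbered pairs of each, and the share of all genes with this was not counted. Psrc1 is a mitotic gene, and the 8 mitotic markers summed to 2.29 to 6.46 CPM in control and 4.49 to 8.29 CPM in DN PT cells at 12 weeks. The part of dividing cells in the Psrc1 values was not tested. In the same PT cells at 12 weeks the 10 immune markers summed to 23.3 to 116.0 CPM in control and 50.1 to 281.1 CPM in DN, the 7 gEC markers to 104.9 to 185.1 and 30.6 to 83.5 CPM, and 18 dissociation genes to 1202 to 1964 and 986.7 to 1736 CPM.

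**Figure D2:**
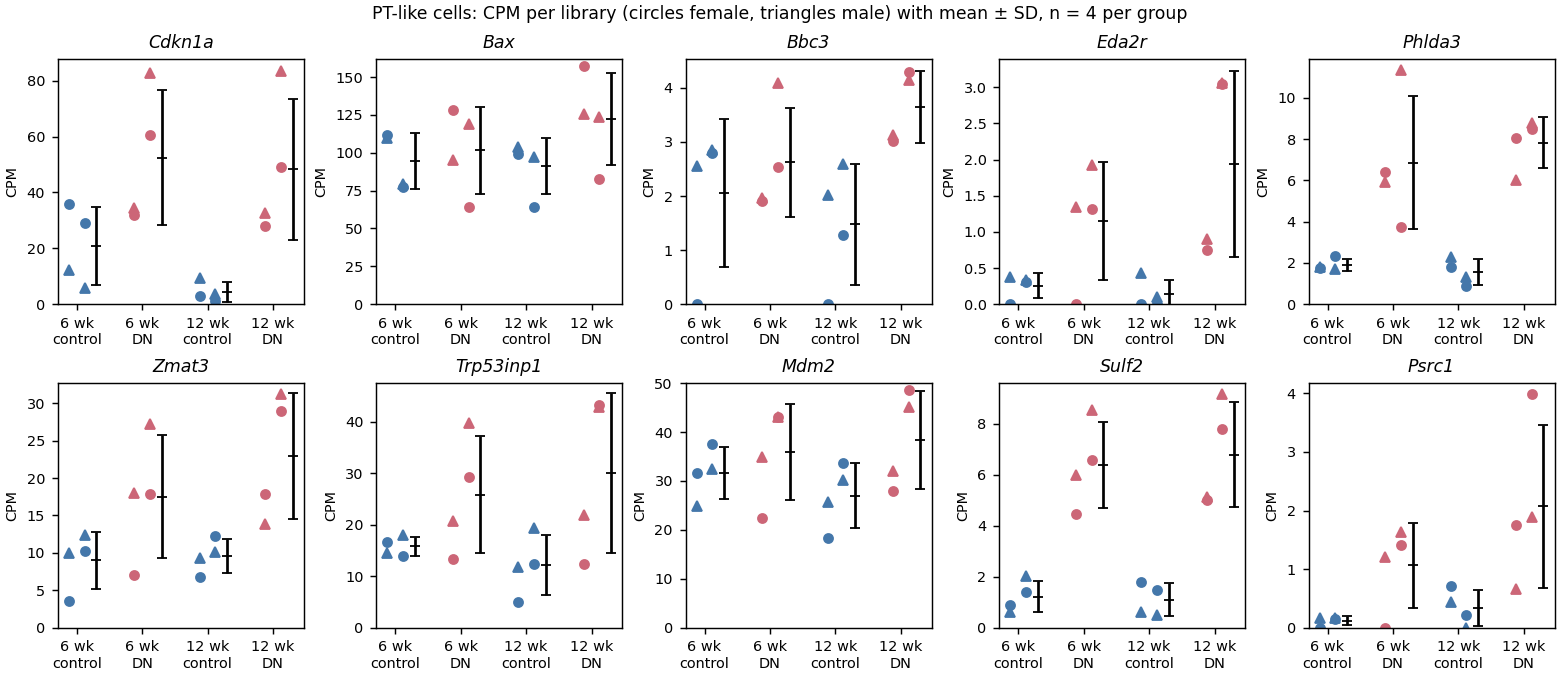
CPM of each member in PT-like cells, 1 symbol per library (circles female, triangles male) with mean and SD, n = 4 per group. Cdkn1a, Phlda3, Sulf2, Eda2r, Zmat3 and Bbc3 do not overlap between control and DN at 12 weeks, and Phlda3 and Sulf2 do not overlap at 6 weeks either. The share of all genes without overlap in PT cells was not counted.

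At 12 weeks Cdkn1a, Phlda3 and Trp53inp1 were higher in DN in a cluster rich in early PT genes and in a cluster with both early and late PT genes. In PT cluster 15, whose mean summed level of the early PT genes Slc5a2, Slc5a12 and Gatm was 4842 CPM in 12-week controls, Cdkn1a was at 4.66 CPM in control and 40.4 CPM in DN at 12 weeks. Cluster 5 had more of the late PT genes Slc13a3, Cyp4a10 and Slc5a8 (893.2 against 141.9 CPM in cluster 15, in 12-week controls). It also held 905.3 CPM of the early genes there, so it was mixed. In cluster 5 Cdkn1a was at 1.99 CPM in control and 36.4 CPM in DN at 12 weeks. Phlda3 was at 0.830 and 2.87 CPM in cluster 15 and at 1.29 and 6.73 CPM in cluster 5. Trp53inp1 had a higher level in cluster 15 (23.5 and 54.2 CPM) than in cluster 5 (9.69 and 25.7 CPM) in both genotypes. The Sulf2 difference was smaller in cluster 15 (2.00 CPM in control, 3.62 in DN) than in cluster 5 (0.755 and 8.61). At 6 weeks Bax in cluster 15 was lower in DN (91.4 CPM in control, 80.95 in DN). Values of the other PT clusters and the remaining members are not given here. Clusters were made from the same cells, so these are descriptions, and the early and late genes were named after the clusters were seen.

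Outside the PT the members were tested in 14 classes with edgeR's quasi-likelihood test, with Benjamini-Hochberg adjustment over all genes of a class, and an adjusted p under 0.05 is a call. The p-values measure the spread between mice, 1 library each. Of the 10 members, 9 passed the filter on low counts in at least 1 of these classes, giving 102 pairs of member and class. Eda2r passed in none of them and Psrc1 in mitotic cells alone.

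At 12 weeks, 3 of the 102 pairs were called, all higher in DN. They were Phlda3 and Cdkn1a in gEC and Cdkn1a in IC-B. Of all genes in the same classes, 0.601% were called higher and 0.89% in either direction. The log2 fold change was positive for 77 of the 102 pairs, with a median of 0.20, while the class medians of all genes lay between -0.02 and 0.02. An unadjusted p under 0.05 was reached by 17.6% of the member pairs and 8.72% of all tests. At 6 weeks edgeR called 0 of the 102 pairs (14 had an unadjusted p under 0.05), and so did DESeq2 (11). Of all genes, 0.11% were called at 6 weeks. The log2 fold change was positive for 72 of 102 pairs, with a median of 0.18. At both ages the pairs share genes and mice, so they are not independent observations. The members were also chosen with PT cells of these mice in view. The counts of positive pairs are therefore descriptions.

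Phlda3 was higher in DN than in control gEC at 12 weeks. Its levels were 137.6, 108.4, 107.4 and 58.4 CPM in the control libraries and 217.8, 224.3, 212.0 and 198.9 CPM in the DN libraries. The lowest DN library stood well above the highest control. Phlda3 had a log2 fold change of 1.03 (SE 0.19, adjusted p = 0.0111 by edgeR). At 6 weeks the levels overlapped, with 114.8, 96.2, 133.6 and 104.9 CPM in controls and 187.9, 95.0, 164.7 and 145.4 CPM in DN. Without DN male 12 weeks replicate 1, which gave 1054 of the Phlda3 UMIs, the log2 fold change of Phlda3 was 0.97 and the adjusted p 0.0835. Without the chemistry term it was 1.03 with an adjusted p of 0.263.

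Cdkn1a was higher in DN than in control gEC at 12 weeks. Its levels were 234.6, 216.7, 192.8 and 219.5 CPM in controls and 350.6, 594.6, 473.5 and 724.7 CPM in DN. The 4 controls were close together and all lay below the DN libraries. Cdkn1a had a log2 fold change of 1.32 (SE 0.26, adjusted p = 0.019 by edgeR). Its mean was lower at 12 than at 6 weeks in both genotypes. It went from 549.0 to 215.9 CPM in control and from 681.4 to 535.9 CPM in DN gEC. At 6 weeks the female libraries were high in both genotypes, with 1181 and 542.1 CPM in control females against 317.9 and 154.9 CPM in control males, and 1120 and 839.5 CPM in DN females against 361.6 and 404.5 CPM in DN males. The highest of each genotype came from the smaller chemistry. Leaving out control female 12 weeks replicate 1, control male 12 weeks replicate 1, control male 12 weeks replicate 2, DN female 12 weeks replicate 2 or DN male 12 weeks replicate 2 gave Cdkn1a in gEC an adjusted p of 0.0779, 0.122, 0.0659, 0.0972 or 0.0574, with log2 fold changes of 1.11 to 1.34. Without the chemistry term the adjusted p was 0.242.

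Other genes of the gEC moved at the same time. Of the 18 immediate early and heat shock genes that dissociation is known to induce, 17 were tested in gEC at 12 weeks, 16 had a positive log2 fold change, with a median of 0.56, and Fos, Junb, Dusp1 and Socs3 were called higher. Their summed level was 3413 to 4665 CPM in control and 4599 to 7167 CPM in DN gEC. The 12 PT genes used as a sign of free RNA summed to 881.7 to 2127 CPM in control and 447.4 to 1441 CPM in DN gEC, with none called. The part of these genes' changes in the Cdkn1a and Phlda3 results was not tested. The 6 other members tested in gEC at 12 weeks had positive fold changes without a call (median 0.37), of which that of Sulf2 was 0.02 and turned to -0.02 with the block. Zmat3 was at 18.4, 24.6, 19.9 and 28.0 CPM in controls and 28.4, 29.7, 34.8 and 57.2 CPM in DN, without overlap, but its log2 fold change of 0.75 (SE 0.27) had an adjusted p of 0.377 by edgeR. This was the lowest p of any Zmat3 comparison. Eda2r could not be tested there and had 0, 0, 8 and 2 UMIs in controls and 3, 3, 26 and 6 in DN.

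Cdkn1a was also higher in DN than in control IC-B cells, the bicarbonate-secreting cells of the collecting duct, at 12 weeks. Its levels were 7.80, 16.8, 12.6 and 9.73 CPM in controls and 22.2, 25.9, 28.7 and 45.0 CPM in DN, without overlap. For Cdkn1a the log2 fold change was 1.33 (SE 0.23, adjusted p = 0.0163 by edgeR). Between 6 and 12 weeks its mean went from 21.5 to 11.7 CPM in control and from 42.3 to 30.4 CPM in DN IC-B. Leaving out control female 12 weeks replicate 1, control male 12 weeks replicate 1, control male 12 weeks replicate 2, DN female 12 weeks replicate 2 or DN male 12 weeks replicate 2 gave an adjusted p of 0.0588, 0.0785, 0.0871, 0.051 or 0.0652, with log2 fold changes of 1.09 to 1.46. With the larger chemistry alone the log2 fold change of Cdkn1a was 1.34 and the adjusted p 0.0724.

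Markers of some other cells in IC-B were as follows. In IC-B cluster 18 (1864 cells before doublets were removed) the next best match by markers was CNT. Its cells had a median of 32164.5 UMIs, against 14550 in IC-B cluster 6. In IC-A cluster 17 (1888 cells) the next best match was PC. The part of CNT or PC RNA in these classes was not tested. The 7 gEC markers, from the class with the highest Cdkn1a level, summed to 98.6 to 129.2 CPM in control and to 86.4 to 104.3 CPM in DN IC-B at 12 weeks, and to 7698 to 12840 CPM in gEC themselves. The 12 PT genes summed to 1224 to 2211 CPM in control and 1646 to 3829 CPM in DN IC-B, and 1 of them, Gpx3, was called higher. The dissociation genes summed to 1671 to 2598 and 1430 to 2875 CPM, with none called. The part of PT RNA in the Cdkn1a difference was not tested.

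Libraries of the 2 genotypes with the same sex, age and replicate number deviated together from their groups, so each comparison was also fitted with the replicate number as a block. With the block, 9 of 102 pairs were called higher at 12 weeks (1.96% of all genes were called higher) and 2 of 102 at 6 weeks (0.676% of all genes), and 0 lower at either age (1.48% of all genes at 12 weeks and 0.42% at 6 weeks were called lower). The 3 calls above had blocked adjusted p-values of 0.000158 for Phlda3 in gEC, 0.000296 for Cdkn1a in gEC and 0.000923 for Cdkn1a in IC-B by edgeR. The other 6 at 12 weeks were Cdkn1a in aLOH (0.00358), Trp53inp1 in IC-B (0.00783), Bax in gEC (0.0129), Cdkn1a in IC-A (0.0161), Cdkn1a in dLOH (0.0385) and Phlda3 in IC-B (0.0418), each given with its blocked adjusted p by edgeR. At 6 weeks they were Cdkn1a in aLOH (0.0299) and Cdkn1a in PC (0.0496).

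Trp53inp1 in IC-B was at 8.19, 18.2, 12.3 and 16.6 CPM in controls and 20.3, 30.3, 30.9 and 21.6 CPM in DN at 12 weeks. The groups did not overlap, and without the block its log2 fold change was 0.91 with an adjusted p of 0.161 by edgeR. Phlda3 in IC-B was at 0.669 to 1.95 CPM in controls and 1.41 to 4.42 CPM in DN, with overlap in 1 DN library, and had an adjusted p of 0.218 without the block. Cdkn1a in IC-A was at 6.38 to 7.97 CPM in controls and 9.19 to 17.0 CPM in DN, without overlap (0.146 without the block), and Bax in gEC at 211.8 to 398.4 and 289.2 to 523.3 CPM, with overlap (0.336).

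Cdkn1a in aLOH cells had the largest fold change of the blocked calls. Its levels at 12 weeks were 1.76, 2.21, 8.04 and 3.68 CPM in controls and 9.49, 57.7, 32.9 and 46.8 CPM in DN. All DN libraries were above all controls, the log2 fold change of Cdkn1a was 3.13 (SE 0.68), and its adjusted p was 0.0702 without the block. The gEC markers in aLOH cells summed to 795.7 to 1002 CPM in controls and 420.9 to 656.3 CPM in DN at that age. At 6 weeks control female replicate 1 reached 114.6 CPM of Cdkn1a while the other 3 controls were at 6.65 to 19.5 CPM, and DN libraries were at 29.5 to 114.7 CPM.

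Counting only whether the libraries overlapped, the DN libraries all stood above the control libraries in 10 of 135 pairs of member and class with a UMI at 12 weeks, against 1.44% of all genes, and all stood below in 2, against 1.86% of all genes. Of the 10, 5 were Cdkn1a (gEC, IC-A, IC-B, aLOH and DCT), 2 were Phlda3 (gEC and aLOH) and the others were Zmat3 in gEC, Trp53inp1 in IC-B and Bbc3 in CNT. The 2 that stood below were Sulf2 in mesangial cells, with 1.98 to 9.95 CPM in controls and 0 to 1.87 CPM in DN from 39 UMIs in all, and Mdm2 in mitotic cells, with 38.3 to 58.0 CPM in controls and 29.8 to 38.1 CPM in DN. At 6 weeks the DN libraries all stood above in 1 of 139 pairs, Cdkn1a in mitotic cells, against 0.87% of all genes, and all below in 0, against 0.895%.

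**Figure D3:**
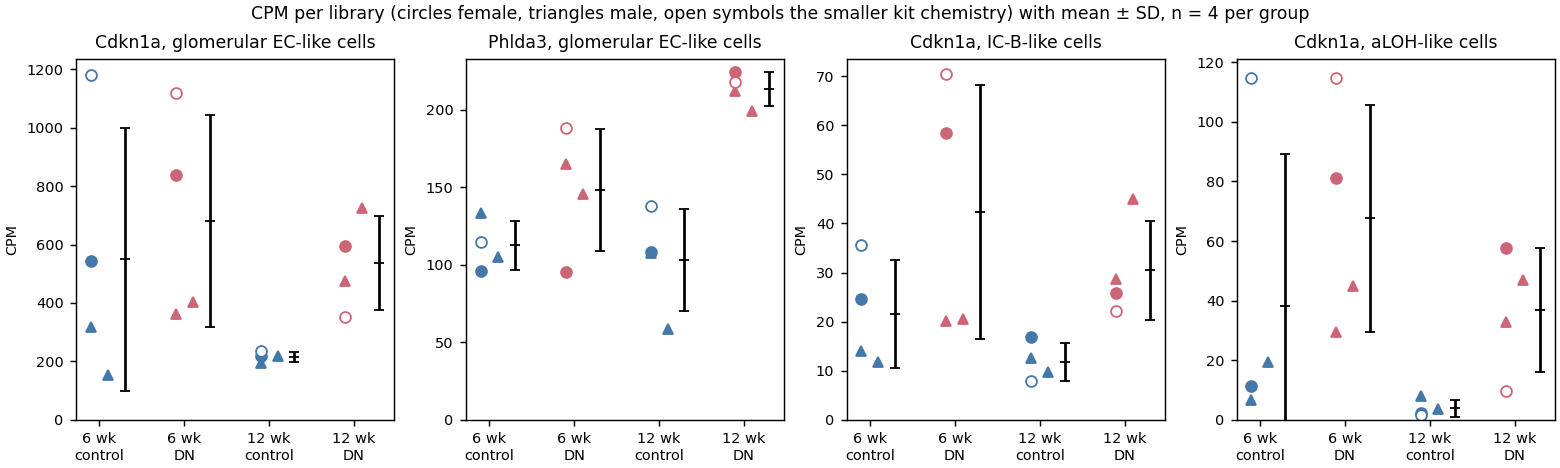
CPM per library of Cdkn1a in gEC, IC-B and aLOH and of Phlda3 in gEC, with mean and SD, n = 4 per group (circles female, triangles male, open symbols the smaller chemistry). At 12 weeks the DN libraries lie above all controls in each panel, while at 6 weeks the genotypes overlap.

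**Figure D4:**
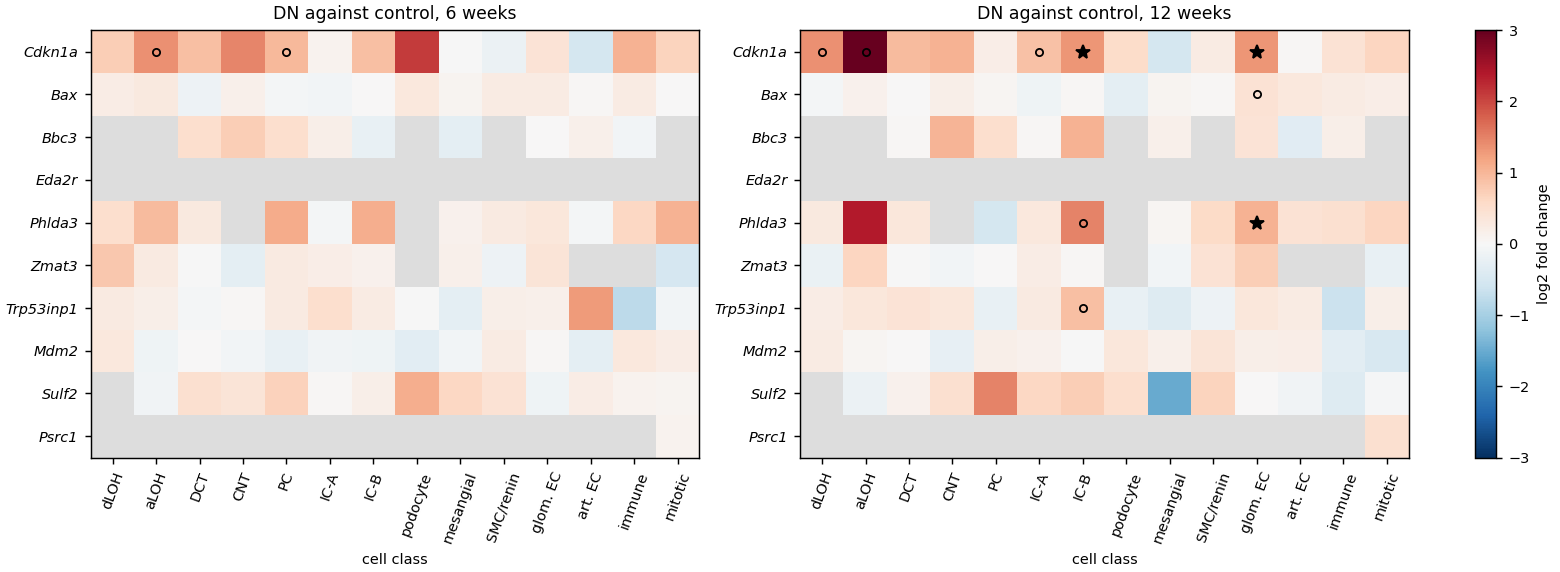
Log2 fold change of each member, DN against control, in the 14 classes other than PT at 6 and 12 weeks. Stars mark calls of the main test, open circles calls made only with the replicate block, and grey fields pairs that did not pass the filter on low counts. At 12 weeks the 3 stars are Cdkn1a in gEC and IC-B and Phlda3 in gEC, and there is none at 6 weeks.

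By member, Cdkn1a outside the PT had a positive fold change in 13 of 14 classes at 12 weeks (range of log2 fold changes -0.52 to 3.13, median 0.76) and in 11 of 14 at 6 weeks (median 0.82). Phlda3 was positive in 11 of 12 classes at 12 weeks (median 0.45) and in 10 of 12 at 6 weeks (median 0.43). Bbc3 was positive in 8 of 9 classes at 12 weeks (median 0.18) and in 6 of 9 at 6 weeks (median 0.15). Bax was positive in 11 of 14 classes at both ages, with log2 fold changes of -0.29 to 0.44 at 12 weeks, and Mdm2 in 10 of 14 at 12 weeks and 6 of 14 at 6 weeks, with -0.47 to 0.40 at 12 weeks. Zmat3 was positive in 6 of 11 classes at 12 weeks and in 7 of 11 at 6 weeks, Sulf2 in 8 of 13 and in 11 of 13, and Trp53inp1 in 9 of 14 at both ages. At 12 weeks the log2 fold change of Sulf2 ran from -1.51 in mesangial cells to 1.49 in PC. That of Trp53inp1 ran from -0.65 to 0.91, and neither was called in any class at that age without the block. The classes come from the same mice, so these counts of classes are descriptions.

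The DN effect itself was compared between the ages in the 14 classes. None of the 102 pairs was called by edgeR or by DESeq2 (0 each), and 5 had an unadjusted p under 0.05 by either tool. Of all genes 0.00295% were called. For the pairs called at 12 weeks, the log2 difference was 0.90 for Cdkn1a in gEC (SE 0.35), 0.68 for Phlda3 in gEC (SE 0.25) and 0.42 for Cdkn1a in IC-B (SE 0.33), each with an adjusted p of 1.0 by edgeR. A larger effect at 12 than at 6 weeks was therefore not shown for any member by these fits. Without the filter on low counts 2 pairs were called, as given below.

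Age was compared within each genotype over all 15 classes. The members were chosen with the PT values of these libraries in view, so their age results in PT are descriptions. In controls, 1 of 112 pairs was called, Cdkn1a in aEC, lower at 12 weeks, and 0.0371% of all genes were called in this comparison. Cdkn1a in control aEC was at 1346, 449.2, 267.0 and 137.8 CPM at 6 weeks and at 135.2, 153.2 and 104.6 CPM at 12 weeks, where control female replicate 2 had too few cells. The groups overlapped, Cdkn1a fell by 1.88 on the log2 scale (SE 0.31, adjusted p = 0.0254 by edgeR), and the highest library was of the smaller chemistry. It was -1.75 with an adjusted p of 0.148 without control female 6 weeks replicate 1, -1.55 with 0.0671 without control male 6 weeks replicate 1, -1.87 with 0.0521 without DN female 6 weeks replicate 1 and -1.82 with 0.277 without DN male 12 weeks replicate 1. Without the chemistry term it was -1.78 with an adjusted p of 0.764. In aEC, the dissociation genes summed to 3883 to 7012 CPM in 6-week and 4417 to 5709 CPM in 12-week controls.

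Cdkn1a had negative fold changes with age elsewhere in controls as well, without a call. The log2 fold change was -1.11 in gEC (adjusted p = 0.599 by edgeR), -1.03 in IC-A, -1.43 in dLOH, -2.01 in PT and -2.42 in aLOH. The value in PT is a description, since PT levels were in view when the members were chosen. Bbc3 had its lowest p in the same comparison, in IC-B, with a log2 fold change of -1.29 (SE 0.33, adjusted p = 0.664 by edgeR, and 0.0172 without the filter on low counts), and Mdm2 in IC-A, with -0.39 (SE 0.13, adjusted p = 0.944). In DN mice edgeR and DESeq2 each called 0 of 112 pairs between the ages, and 11 and 9 of them had an unadjusted p under 0.05. Of all genes 0.00877% were called. Eda2r had its lowest p of all there, in PT, with a log2 fold change of 0.71 (SE 0.53, adjusted p = 0.956 by edgeR). This PT value is a description for the same reason.

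Sex was compared over both ages in all 15 classes, where 2.5% of all genes were called. Of 112 member pairs 2 were called, Bax in PT, higher in males, and Trp53inp1 in IC-B, lower in males. The Bax result in PT is a description, since PT levels were in view when the members were chosen. All male libraries were of the larger chemistry, so values within it are given beside. Bax in PT had 63.9, 91.0 and 157.2 CPM as lowest, median and highest of 8 female libraries and 79.7, 106.9 and 125.6 CPM in 8 male ones. Within the larger chemistry, the 4 female libraries were at 63.9 to 82.9 CPM. Bax had a log2 fold change of 0.79 (SE 0.15, adjusted p = 0.00201 by edgeR), and without the chemistry term it was 0.11 with an adjusted p of 0.863.

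Trp53inp1 in IC-B had 7.04, 20.0 and 48.2 CPM as lowest, median and highest of 8 female libraries and 10.3, 15.98 and 30.9 CPM in 8 male ones, and in the larger chemistry the 4 female libraries had 18.2 to 48.2 CPM. The log2 fold change of Trp53inp1 was -0.85 (SE 0.18, adjusted p = 0.0311 by edgeR), and without the chemistry term -0.56 with an adjusted p of 0.276. Leaving out control female 6 weeks replicate 2, control female 12 weeks replicate 2, control male 6 weeks replicate 1 or control male 12 weeks replicate 1 gave 0.395, 0.0861, 0.066 or 0.062. Leaving out DN female 6 weeks replicate 2, DN female 12 weeks replicate 2, DN male 6 weeks replicate 1 or DN male 12 weeks replicate 2 gave 0.218, 0.0529, 0.0636 or 0.0577, again adjusted p-values of edgeR.

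Sulf2 had its lowest p of any comparison between the sexes, in gEC. Within the larger chemistry, female libraries (n = 4) ranged from 29.7 to 45.3 CPM and male libraries (n = 8) from 11.7 to 26.2 CPM, which do not overlap. Over all libraries its log2 fold change was -0.999 (SE 0.23, adjusted p = 0.0899 by edgeR), and DESeq2 called it (-1.01, adjusted p = 0.0298). Psrc1 was tested in mitotic cells and had a log2 fold change of 1.04 between the sexes (SE 0.52, adjusted p = 0.639 by edgeR).

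Further genes of the pathway were counted from a list of 28 other p53 targets. At 12 weeks 27 of them passed the filter in some class other than PT, and of 286 pairs 5 were called higher and 1 lower. At 6 weeks 0 were called higher and 1 lower, Gadd45a, a damage-inducible growth arrest gene, in mesangial cells (33.4 ± 9.63 CPM in control, 13.1 ± 3.75 CPM in DN, log2 fold change -1.31, adjusted p = 0.0478 by edgeR). With the block 18 were called higher and 6 lower at 12 weeks and 3 higher and 2 lower at 6 weeks. The median log2 fold change of the 286 pairs was 0.05 at 6 weeks and 0.03 at 12 weeks. Of all genes, edgeR called 0.601% higher and 0.89% in either direction at 12 weeks, and 0.11% at 6 weeks. With the block, 1.96% were higher and 1.48% lower at 12 weeks, and 0.676% and 0.42% at 6 weeks. An unadjusted p under 0.05 was reached by 5.6% of all edgeR tests at 6 weeks and 8.72% at 12 weeks. The same shares apply to the edgeR and blocked counts of the lists below. Of all 135581 tests, DESeq2 called 1038 higher and 549 lower at 12 weeks, and 237 higher and 92 lower at 6 weeks.

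Ak1, an adenylate kinase, was called in mesangial cells and gEC. It was at 46.9 ± 20.2 CPM in control and 129.7 ± 32.0 CPM in DN mesangial cells at 12 weeks (SD, n = 4 libraries each, log2 fold change 1.61, SE 0.32, adjusted p = 0.0103 by edgeR) and at 10.5 ± 3.75 and 42.8 ± 23.3 CPM in gEC (log2 fold change 2.26, adjusted p = 0.0111 by edgeR). Perp is a membrane protein of desmosomes and p53-dependent death. In mesangial cells at 12 weeks it was at 61.6 ± 12.1 CPM in control and 162.8 ± 64.8 CPM in DN. Its log2 fold change was 1.42 (SE 0.27, adjusted p = 0.00816 by edgeR). Gdf15 is a secreted stress cytokine. In CNT cells at 12 weeks it was at 3.63 ± 2.93 CPM in control and 18.2 ± 11.2 CPM in DN. Its log2 fold change there was 2.59 (SE 0.54, adjusted p = 0.00997 by edgeR). In DCT cells it was at 0.548 ± 0.656 CPM in control and 7.23 ± 5.23 CPM in DN (adjusted p = 0.034 by edgeR). Plk2, a polo-like kinase, was at 2.998 ± 1.60 CPM in control and 0.475 ± 0.394 CPM in DN IC-A cells at 12 weeks. Its log2 fold change was -2.59 (SE 0.56, adjusted p = 0.0251 by edgeR).

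Several of these calls were lost without 1 library. The log2 fold changes with 1 library left out ran from 1.40 to 1.82 for Ak1 in mesangial cells, 1.17 to 1.74 for Perp, 1.80 to 3.83 for Gdf15 in CNT cells and -2.87 to -2.10 for Plk2. Ak1 in mesangial cells had an adjusted p of 0.0575, 0.0601 or 0.0521 by edgeR without control male 12 weeks replicate 2, DN female 12 weeks replicate 2 or DN male 12 weeks replicate 1, and Perp one of 0.0512 without control male 12 weeks replicate 2. Gdf15 in CNT cells lost its call without control female 12 weeks replicate 2 (0.0746), control male 12 weeks replicate 2 (0.142), DN female 12 weeks replicate 2 (0.0671) or DN male 12 weeks replicate 2 (0.0709), and in DESeq2 (0.629). Plk2 in IC-A lost it without control female 12 weeks replicate 1 (0.0842), control male 12 weeks replicate 1 (0.0555), DN female 12 weeks replicate 2 (0.128), DN male 12 weeks replicate 1 (0.0961) or DN male 12 weeks replicate 2 (0.0618). The count at 6 weeks, which was Gadd45a alone, was 0 in 11 of the 16 fits without 1 library.

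The lists upstream of and beside the members were counted in the same way. Of 14 p53 regulators, among them Trp53, Mdm4, Atm and Chek2, 13 could be tested outside the PT and edgeR and DESeq2 called 0 of 130 pairs at either age, and by edgeR 0 had an unadjusted p under 0.05 at 6 weeks and 5 at 12 weeks. Of the 5 other Cdk inhibitors 0 of 57 pairs were called at either age by edgeR, with 3 and 11 at an unadjusted p under 0.05, while DESeq2 called 0 at 6 weeks and 1 at 12 weeks and the block gave 0 higher and 1 lower at 6 weeks and 1 higher and 5 lower at 12 weeks. Of 12 further Bcl2 family genes 1 of 120 pairs was called at 12 weeks, Bcl2, which opposes Bax, lower in IC-A (48.5 ± 6.21 CPM in control, 25.9 ± 2.97 CPM in DN, log2 fold change -0.78, SE 0.15, adjusted p = 0.0126 by edgeR), and 0 at 6 weeks by edgeR. An unadjusted p under 0.05 was reached by 25 of the Bcl2 family pairs at 12 weeks and 16 at 6 weeks. DESeq2 called 3 of them higher and 2 lower at 12 weeks and 1 higher at 6 weeks, and the block 5 higher and 6 lower at 12 weeks and 1 higher and 1 lower at 6 weeks. Bcl2 had an adjusted p of 0.0662, 0.0588 or 0.0852 without control female 12 weeks replicate 1, control male 12 weeks replicate 2 or DN female 12 weeks replicate 2, and of 0.931 with the finer clusters (log2 fold change -0.41). Between the sexes Bmf, a BH3-only gene, was lower in males in IC-B (log2 fold change -1.03, adjusted p = 0.0128 by edgeR), but not without control female 6 weeks replicate 2 (0.319) or DN female 6 weeks replicate 2 (0.143).

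Of 239 pairs of a dissociation gene and a class outside the PT, edgeR called 17 higher at 12 weeks and 2 at 6 weeks, and 0 lower. DESeq2 called 15 higher and 1 lower at 12 weeks and 0 higher and 1 lower at 6 weeks. With the block 35 were higher and 6 lower at 12 weeks, and 13 higher and 6 lower at 6 weeks. The lowest adjusted p was that of Ier3, an immediate early gene, in CNT cells (log2 fold change 2.02, adjusted p = 2.05e-05 by edgeR), and Klf6 in mesangial cells (1.02, 0.00302) and Socs3 in gEC (1.497, 0.00755) were also called. Socs3 had an adjusted p of 0.0518, 0.0528 or 0.26 without control female 12 weeks replicate 1, control male 12 weeks replicate 1 or DN male 12 weeks replicate 1. Fos in aEC was higher in males (2.48, 0.00067), but not without DN male 12 weeks replicate 1 (0.603). Of 164 pairs of the PT genes that mark free RNA, 2 were called higher and 2 lower at 12 weeks and 1 higher and 2 lower at 6 weeks, and with the block 2 higher and 19 lower at 12 weeks and 4 higher and 25 lower at 6 weeks. Among them Gpx3 was called higher in DN in IC-A at 12 weeks (1.39, 0.000411) and Kap, which is male-biased in PT, higher in males in SMC (3.86, 1.42e-05). Pck1 was lower in males in CNT (-1.67, 0.000521), and Acsm2 was higher in males in IC-B (1.69, 0.00246), though not without control female 6 weeks replicate 2 (0.0784). The part of free PT RNA in the members' values was not tested.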

How the data were processed

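RNA was measured in 16 single-cell libraries of mouse kidney. The authors deposited raw UMI counts per gene and cell barcode, made with Cell Ranger 3.0.2 on mm10 per the labels, and the counts were not normalized. How counting treated strand is not given in the sources used here. Of 116439 barcodes, 94436 passed the filter (200 to 7000 genes, no more than 50% mitochondrial counts) and were aligned with a Python version of Harmony (30 components) and clustered by Leiden (leidenalg 0.10.2, resolution 1). Clusters were named from marker lists for 16 classes, and the thresholds for naming were set after the clusters were seen. Doublets by lineage markers (6852 cells) and non-tubular cells with over 20% mitochondrial counts (897) were removed. One podocyte marker and 1 gene of similar profile are not reported here.

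Counts were summed per library and class (at least 10 cells) and tested with edgeR 4.0.16 (quasi-likelihood test, TMM, filterByExpr with a minimum count of 10). Each class had 1 fit of all libraries with genotype within age, sex within age and chemistry as terms. The SE given with edgeR was derived from its test, as the absolute log2 fold change over the square root of the F statistic. DESeq2 1.42.0 was an alternative, with others on normalization, filters, doublets, resolution, chemistry and single libraries left out. The scripts were tested on simulated data. Gene positions are from GENCODE M21 (GRCm38).

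The members and lists were chosen with earlier results of these data known. All 10 members are named, with full statistics for each call or, without one, for the lowest p, up to 4 genes of each further list, and the 2 genes of most similar profile. Samples with the same replicate number deviated together: over 12 classes 47 of 48 correlations of their deviations were above 0.1 (median 0.388), the exception being immune cells of 12-week males (0.0749). The 12 classes reuse the same libraries, so the 48 values are not independent. With 2 libraries per group, swapping the replicate numbers of a group would only turn the sign. The pairing comes from the data and not from the labels, and in females it coincides with the chemistry. The blocked fit, in which the pairs replace sex and chemistry, is printed where it changes a call of a member or the counts of a list.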

Additional observations from a re-analysis of the deposited data

Results flagged for a closer look

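Among 45 groups of 4 libraries checked for the results named above, 1 held a library far from the others, Bax in PT-like cells of control females at 12 weeks, replicate 2, at 63.9 CPM against 97.5 to 104.0 CPM in the other 3 libraries of 12-week controls. Such a gap is found by chance in about 1 in 20 groups of like libraries, but this group mixed sexes and chemistries. The flagged library was its only female library of the larger chemistry. Over both genotypes and ages, the 4 such libraries were at 63.9 to 82.9 CPM.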

How the results depend on the processing

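None of the results followed through the alternative runs changed direction. They were each member's calls or, without a call, its lowest p, and up to 4 genes of a further list. Sulf2 in gEC at 12 weeks (0.02, and -0.02 with the block) was not among them. Without a filter on low counts the members called outside the PT were 4 at 6 weeks, 10 at 12 weeks and 2 for the difference between the ages, and 8, 3 and 10 for age in controls, age in DN and sex, while the other p53 targets were 9 and 21. With the replicate block, members were 2 and 9 and other targets 5 and 24, at 6 and 12 weeks. Without the chemistry term 1 member was called at 12 weeks, 0 for age in controls and 0 for sex, and 0 and 2 other targets at 6 and 12 weeks. With only the larger chemistry 0 members were called for age in controls, and 0 and 3 other targets at 6 and 12 weeks. DESeq2 called 4 of 112 member pairs between the sexes. Of all 148232 tests in that comparison it called 2816 higher and 1604 lower. Scrublet doublets or resolution 2 left 0 other targets at 6 weeks. The share of all genes called is not given here for the fits with other filters, chemistry terms, doublets, clusters or libraries. Their counts describe the members and lists alone.

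With 1 library left out, members called ranged from 1 to 4 at 12 weeks, 0 to 1 for age in controls and 1 to 3 for sex, and other targets from 0 to 1 at 6 weeks and 2 to 7 at 12 weeks. Members at 6 weeks, for the difference between ages and for age in DN stayed at 0. The causes were not tested. The levels of each member in its highest class moved by less than 1 SD under the 3 alternatives. Counts limit Eda2r and Psrc1 outside PT and mitotic cells.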

Other observations

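Cells in unnamed clusters also carried the members. Cluster 22 reached no class (its best match was dLOH with 2 markers). Its late PT genes Slc13a3, Cyp4a10 and Slc5a8 had mean summed levels of 575.3 CPM in control and 1292 CPM in DN at 12 weeks. At 6 weeks these levels were 991.2 CPM in control and 1475 CPM in DN. The control and DN cells of the cluster thus differed in these genes as well. Cluster 22 held 119 and 199 control cells but 489 and 454 DN cells at 6 and 12 weeks, in libraries with at least 10 of its cells. Phlda3 was at 1.35 CPM in its control and 22.0 CPM in its DN cells at 6 weeks, and at 4.95 and 30.4 CPM at 12 weeks. Cdkn1a was at 10.2 and 181.3 CPM at 6 weeks and at 19.3 and 68.5 CPM at 12 weeks, and Sulf2 at 11.6 and 30.4 CPM and at 7.34 and 25.2 CPM. Psrc1 had no UMI in its control cells at either age and was at 1.83 and 3.48 CPM in DN. These values were chosen after they were seen and were not tested.

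Cluster 14, left unnamed because it held markers of both arterial and peritubular endothelial cells, had Cdkn1a at 736.4 CPM in control and 744.7 CPM in DN at 6 weeks and at 156.0 and 270.0 CPM at 12 weeks. Its Phlda3 level was 55.6 CPM in control and 72.8 CPM in DN at 12 weeks.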
